A study of Arabidopsis thaliana with 28 samples.

Results

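The genes described here are the nuclear genes for the core of both photosystems and for photosynthetic electron transport in Arabidopsis thaliana, with the light-harvesting antenna left out. They were taken as a fixed list of 32 gene identifiers among the 33602 genes of the deposited tables, and all 32 are present. The list holds 12 subunits of photosystem I, 11 proteins of photosystem II, 6 electron carriers or enzymes that pass electrons between or after the photosystems, and 3 subunits of the chloroplast ATP synthase. RNA came from whole 7-day-old seedlings grown in long days of 16 h light and 8 h dark, either of a pif7 mutant, whose allele is not named, or of the wild type Col-0. PIF7 is a transcription factor of the phytochrome-interacting family. The oscillating regime warmed the seedlings to 27 °C between ZT4 and ZT12 and kept them at 17 °C otherwise, and the constant regime stayed at 17 °C (ZT is hours after lights on). Every genotype was sampled in both regimes at 7 times, namely ZT0 and ZT4 before the warming, ZT5, ZT8 and ZT12 in the warm hours, and ZT16 and ZT20 after them. Each of these 28 conditions has a single library. Oscillating libraries are all labelled 27 °C, even those taken at cool times, so the regime was read from the growth protocol. At ZT0, ZT16 and ZT20 both regimes stood at 17 °C, and at ZT4 the warming was about to start.

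Photosystem II uses light to split water and passes the electrons through plastoquinone to the cytochrome b6f complex. From there plastocyanin carries them to photosystem I, whose stromal face hands them to ferredoxin, and ferredoxin-NADP reductase makes NADPH. The protons released into the thylakoid lumen drive the ATP synthase. The reaction centre proteins themselves are encoded in the chloroplast. The genes on the list encode peripheral, stabilising and docking proteins of the photosystems, electron carriers and their enzymes, and ATP synthase subunits. All of these proteins are made in the cytosol and imported. Transcripts of these genes are known to be high in green tissue, to rise with light and to follow the circadian clock.

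The list behaved as its label says for green seedlings. All 32 genes lay among the most abundant transcripts, with median levels over the 28 libraries between 249.7 TPM (PETE1) and 3595 TPM (PSBR), and the least abundant of them still stood at percentile 96.8 of the 21031 genes tested. TPM is a level per length of transcript, nominally in parts of 1000000 per library. The reference genes here summed to between 1010427 and 1034801 TPM. Together the 32 genes took 3.09% to 6.32% of the nominal 1000000 in the 14 oscillating libraries, against 4.27% to 6.48% in the 14 constant ones. Depth ran from 1.32 to 2.82 gigabases of sequence per library. PIF7 itself was lower in pif7, with a log2 difference from Col-0 of -1.54 (SE 0.10, adjusted p = 2.31e-08), which checks the genotype labels. Differences between 2 libraries also followed transcript length across genes, with Spearman correlations between -0.36 and 0.58 over the 14 pairs of an oscillating and a constant library and both signs among them. The members are short, with a median transcript of 1069.5 bases against 1697 for the genes tested, so the main counts are also given with that length trend removed. With 1 library per condition there are no replicates, and p measures how constant a difference was over times and genotypes.

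The genes followed the time of day in both regimes, and more widely under oscillating temperature. Limma's test over the 7 times took the 2 genotypes at each time in place of replicates. At a Benjamini-Hochberg adjusted p under 0.05, 30 of the 32 genes varied in the oscillating regime, where 65.7% of all genes passed, and 21 of 32 varied in the constant regime, where 30.6% did. The 2 that did not pass in the oscillating regime were PETC and ATPG. The median distance between the highest and the lowest time was 1.29 log2 units in the oscillating regime and 0.82 in the constant one. In 27 of 32 genes the range over the day was wider in the oscillating regime in both genotypes, which held for 41.5% of all genes. The exceptions were PSBO2, FNR1, FNR2, ATPC1 and ATPG. This comparison of ranges carries no test.

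The highest point of most courses fell at ZT8 in both regimes. Averaged over the genotypes, 22 of 32 genes were highest at ZT8 in the oscillating regime, where 14.4% of all genes were, and 17 were in the constant regime, where 14.6% of all genes were. ZT4 held 5 peaks in the oscillating regime, against 16.7% of all genes, and 12 in the constant regime, against 10.9%. The low point fell at ZT20, in the night, for 26 genes in the oscillating regime and for 18 in the constant one, against 9.41% and 12.0% of all genes. In the constant regime another 8 genes were lowest at ZT12, still in the light, where 10.4% of all genes were. These counts are of the mean of the genotypes and include genes that did not pass the test over times. In constant Col-0 alone, 11 genes were lowest at ZT20, 10 at ZT0 and 7 at ZT12, against 18, 0 and 5 in constant pif7. Shares of all genes were not computed for single genotypes.

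**Figure D1:**
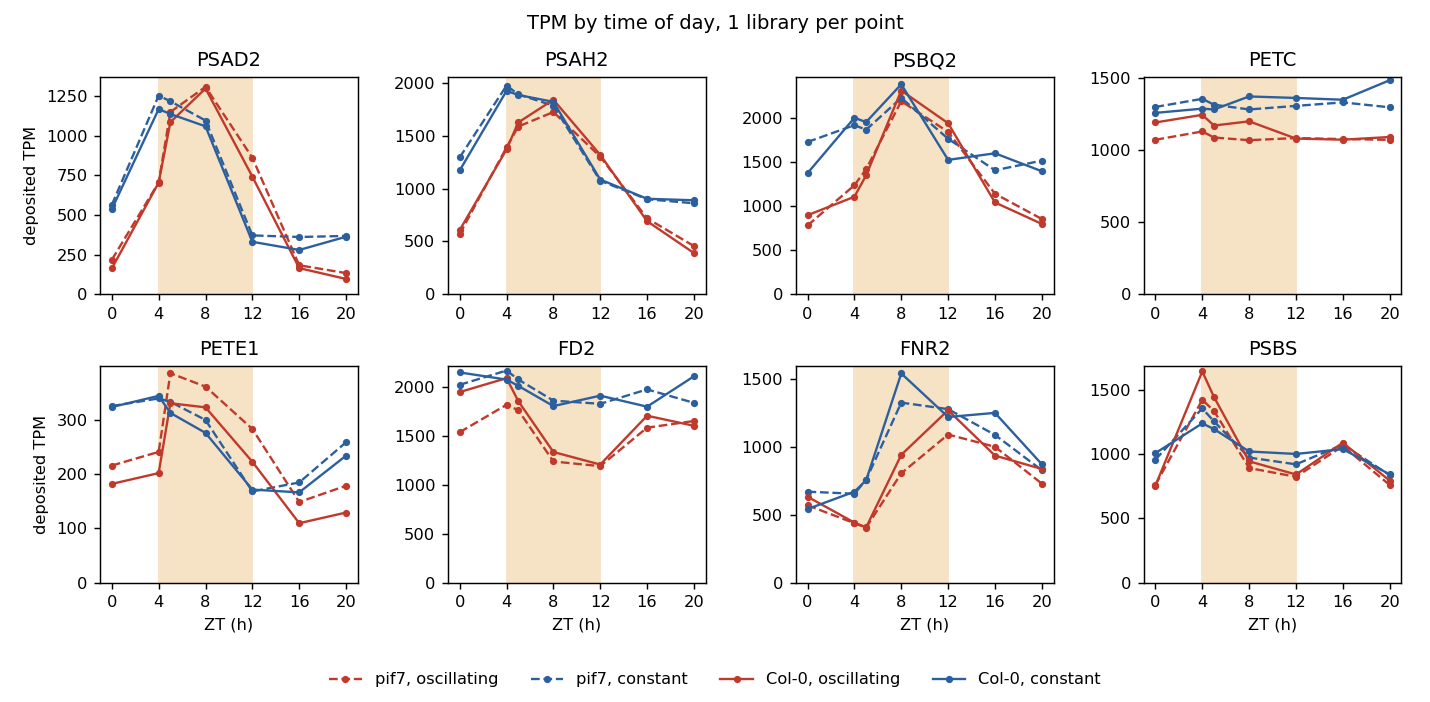
Deposited TPM (vertical axis, from 0) against time of day (ZT, hours) for 8 of the genes, with 1 library per point. Red lines are the oscillating and blue lines the constant regime, dashed lines pif7 and solid lines Col-0, and the shaded band marks the hours at 27 °C. PSAD2 falls to 96.0 TPM at ZT20 in oscillating Col-0 seedlings, against 363 TPM in constant ones. PETC in the oscillating regime lies between 1070 and 1131 TPM in pif7 and between 1074 and 1246 TPM in Col-0.

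Outside the warm hours the photosystem genes were lower in seedlings of the oscillating regime. Over ZT0, ZT4, ZT16 and ZT20, 24 of the 32 genes fell and 0 rose in limma's test at an adjusted p under 0.05, where 2.7% of all genes tested fell and 2.62% rose; before adjustment 30 members had p under 0.05, all lower, against 22.9% of all genes in either direction. All 32 differences were below 0, while 51.5% of all genes were above it, with a median of -0.54 on the log2 scale, a ratio of 0.689, beside a median of 0.01 over all genes. On the scaled values, 25 of 32 genes were lower in the oscillating regime in all 8 pairs of libraries, which was so for 3.37% of all genes; in deposited TPM without scaling it was 19 of 32. In deposited TPM the 8 libraries of each regime did not overlap in 4 genes, PSBQ1, PSBQ2, PSBTN and PETC, against 0.171% of all genes. On the scaled values PSBQ1 and PETC overlapped. In whole seedlings, fewer green cells and less of these RNAs per cell cannot be told apart. The 12 root markers summed to between 1638 and 2588 TPM in the 8 oscillating libraries, against 1832 to 2157 TPM in the 8 constant ones, with 1 marker higher and 1 lower, and their part in the result was not tested.

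That count changed most with the scaling and with ZT20. Under quantile normalization, which gives every library the same distribution of values, 9 members passed, 28 of 32 lay below 0 and the median was -0.24, and without ZT20 10 passed with a median of -0.49. With the length trend removed 20 passed with a median of -0.43, and without the Col-0 pair at ZT16, where the length trend was steepest, 20 passed. Without any scaling of the deposited values the median of all genes moved to 0.11, the split over all genes was 1266 higher and 334 lower in place of 550 and 567, and 22 members passed, all lower. PSAD1, PSAD2, PSAH2, PSBO2, PSBQ2, PSBTN and PETE1 passed under all 17 alternatives run.

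**Figure D2:**
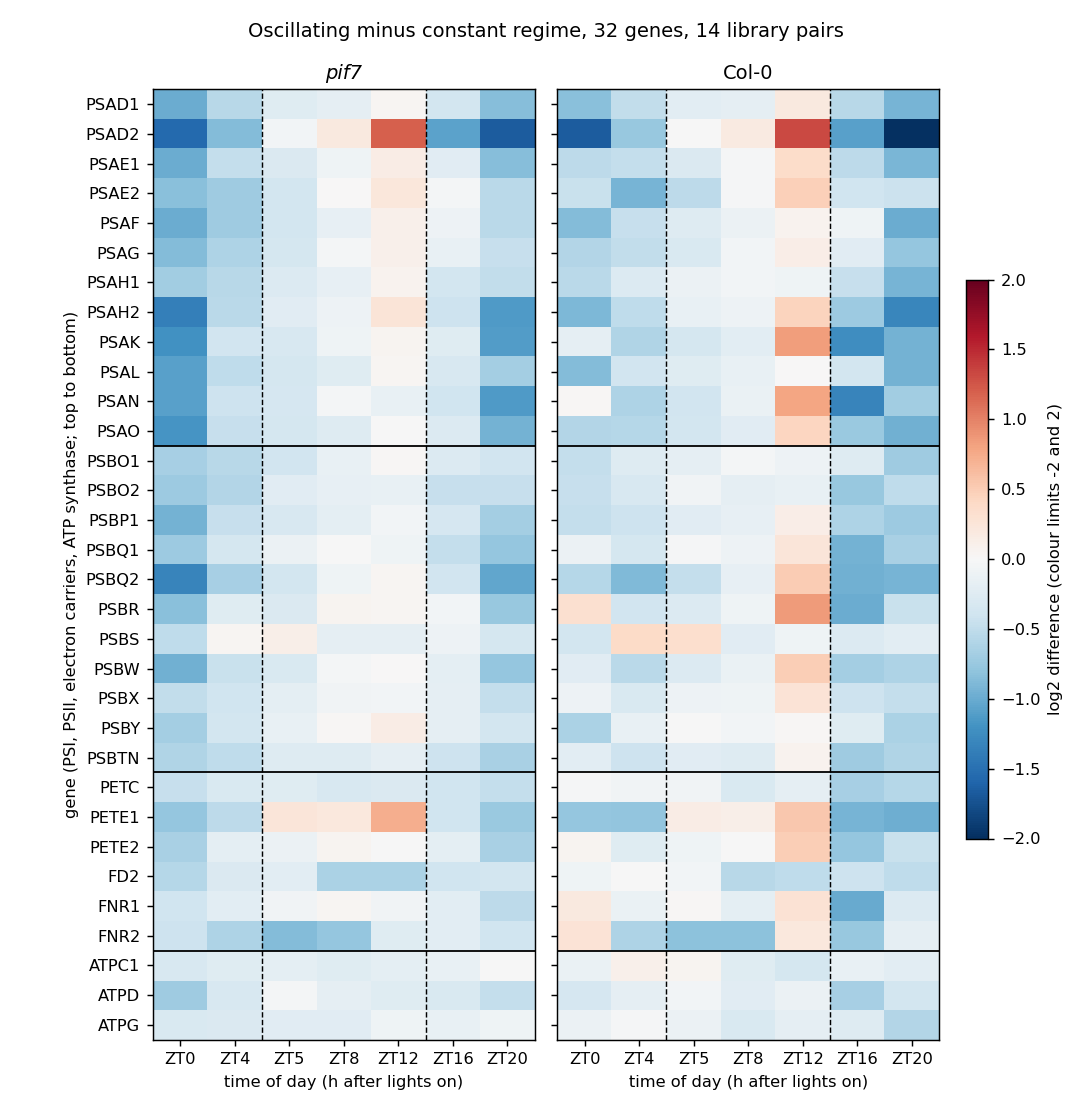
Log2 difference of the oscillating minus the constant library for each of the 32 genes (rows, by complex) at each time of day (columns), in pif7 on the left and Col-0 on the right. Blue is lower and red higher in the oscillating regime, and the dashed lines enclose the times in the warm hours. On these scaled values 0 of 32 genes are above 0 at ZT16 and ZT20 in either genotype, and 16 in pif7 and 23 in Col-0 are above 0 at ZT12. In deposited TPM without scaling 18 genes in pif7 and 17 in Col-0 are above 0 at ZT12, 2 in pif7 and 7 in Col-0 at ZT16, and 2 in pif7 and 0 in Col-0 at ZT20.

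All 12 genes of photosystem I fell outside the warm hours, with a median of -0.67. PSAD and PSAE help to dock ferredoxin on the stromal side and PSAF plastocyanin on the lumen side, and the D subunit is encoded by a pair of genes. PSAD2 (AT1G03130, TAIR10 chr1:753307-754198, minus strand) had a lowest, median and highest level of 96.0, 174 and 706 TPM in the 8 oscillating libraries, against 279, 453 and 1255 TPM in the 8 constant ones. The ranges overlapped only because of ZT4, where PSAD2 had 706 and 705 TPM in the oscillating pif7 and Col-0 libraries, against 1255 and 1169.6 TPM in the constant ones. Its log2 difference outside the warm hours was -1.34 (SE 0.18, adjusted p = 0.00115), the largest of the list, and it was lower in 8 of 8 pairs. PSAD1 (AT4G02770) had a lowest, median and highest level of 726, 970.4 and 1605 TPM in the 8 oscillating libraries, against 1279, 1340.2 and 2304 TPM in the 8 constant ones, a difference of -0.70 (SE 0.10, adjusted p = 0.00146). Both D genes fell, and the difference was larger in PSAD2, the one that also ranged farther over the day.

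PSAH binds at the place where antenna complexes dock during state transitions. PSAH2 (AT1G52230) had a lowest, median and highest level of 389, 649 and 1389.6 TPM in the 8 oscillating libraries, against 860.5, 1037 and 1975 TPM in the 8 constant ones, and its difference was -0.86 (SE 0.13, adjusted p = 0.00199). PSAH1 differed by -0.54 (SE 0.09, adjusted p = 0.00285). The other members of photosystem I showed differences between -0.74 and -0.52. PSAK, a subunit beside the antenna, differed by -0.74 (SE 0.16, adjusted p = 0.0176). PSAO, a small subunit near PSAL and PSAH, differed by -0.72 (SE 0.12, adjusted p = 0.00446), and PSAN, which lies on the lumen side where plastocyanin binds, by -0.70 (SE 0.16, adjusted p = 0.0214). PSAK and PSAN lost their call under quantile normalization, without ZT16, without ZT20 and without the Col-0 pair at ZT16, and PSAN also without ZT4 and with no filter on low values. PSAL, which PSAH joins, fell by 0.64, PSAE1 by 0.62, PSAF by 0.59, PSAE2 by 0.54 and PSAG by 0.52. The calls of PSAE2 and PSAG were each lost in 5 of 17 alternatives, and that of PSAF in 4.

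In photosystem II 9 of 11 genes fell outside the warm hours, with a median of -0.51. PSBO, PSBP and PSBQ form the extrinsic part of the oxygen-evolving complex on the lumen side. PSBQ2 (AT4G05180) had a lowest, median and highest level of 779, 967 and 1234 TPM in the 8 oscillating libraries, against 1371, 1554 and 1999 TPM in the 8 constant ones, so that no oscillating library reached a constant one, and it differed by -0.84 (SE 0.12, adjusted p = 0.00199). PSBQ1 (AT4G21280) had a lowest, median and highest level of 1153, 1342 and 1581 TPM in the 8 oscillating libraries, against 1630.0, 1837 and 1972 TPM in the 8 constant ones and differed by -0.55 (SE 0.10, adjusted p = 0.00709). In deposited TPM both PSBQ genes therefore separated the regimes completely at these 4 times, while PSBQ1 overlapped on the scaled values. PSBP1 fell by 0.58, PSBO2 by 0.53 and PSBO1 by 0.45, each in 8 of 8 pairs on the scaled values. In deposited TPM PSBO1 was higher in the oscillating Col-0 library at ZT16, with 1722 against 1637 TPM. The call of PSBO1 was lost in 4 of 17 alternatives, over which its difference reached -0.07, and PSBP1 was lost under quantile normalization.

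The small subunits fell by less than PSBQ2. PSBTN, a small nuclear-encoded protein of photosystem II, had a lowest, median and highest level of 989.9, 1086 and 1129 TPM in the 8 oscillating libraries, against 1340.3, 1388 and 1562 TPM in the 8 constant ones, with no overlap, and differed by -0.51 (SE 0.08, adjusted p = 0.00341). PSBW fell by 0.55 and PSBY by 0.41, with their calls lost in 3 and 5 of 17 alternatives. PSBX fell by 0.35, but its call was lost in 11 of 17 alternatives and its difference was 0.03 under quantile normalization. PSBR, which helps to hold PSBP in place, had a difference of -0.42 (SE 0.16, adjusted p = 0.135) with 7 of 8 pairs lower, and did not pass. PSBS is not a core subunit but the sensor that switches excess light to heat. It had a lowest, median and highest level of 754, 926 and 1640.4 TPM in the 8 oscillating libraries, against 835, 1022 and 1353 TPM in the 8 constant ones, with a difference of -0.17 (SE 0.10, adjusted p = 0.340). At ZT4 PSBS had 1419.7 and 1640.4 TPM in the oscillating pif7 and Col-0 libraries, against 1353 and 1237 TPM in the constant ones, so that it was the 1 member with an estimate above 0 over both genotypes at that time.

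**Figure D3:**
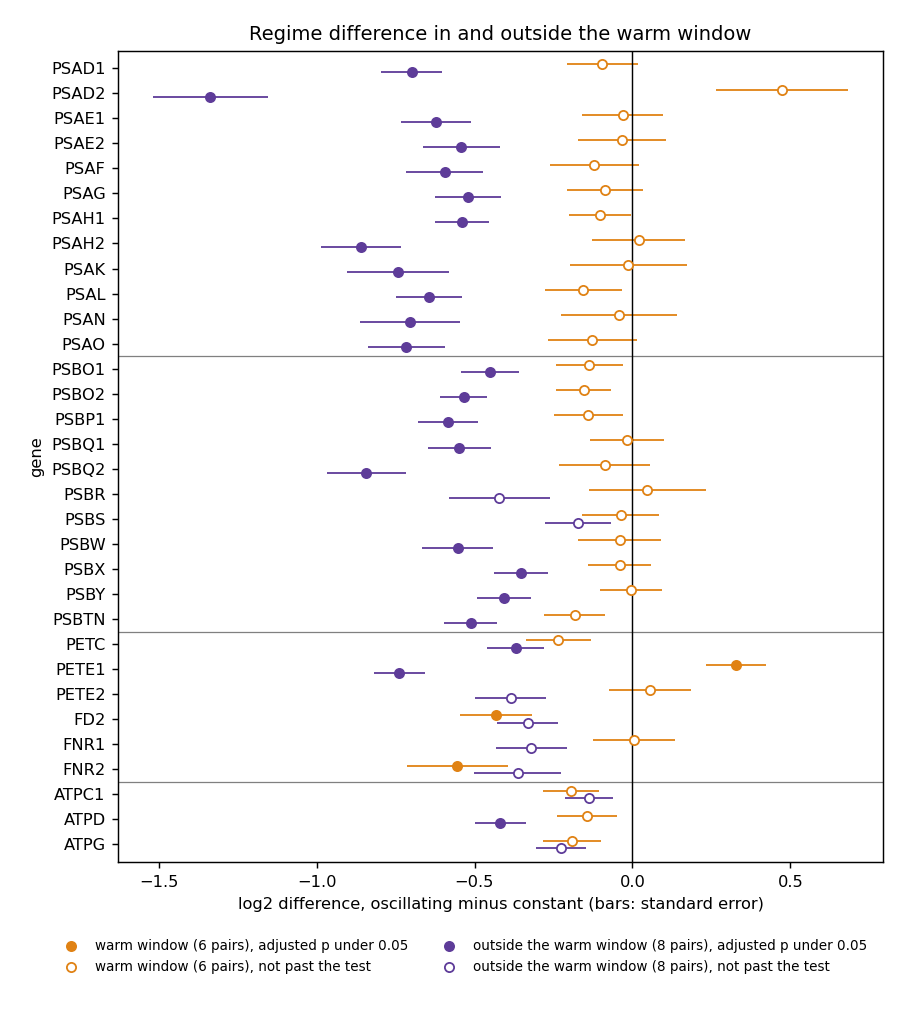
Log2 difference of the oscillating minus the constant regime for each gene (rows, by complex) from the fit over all 28 libraries, in the warm hours (ZT5, ZT8 and ZT12, orange) and outside them (ZT0, ZT4, ZT16 and ZT20, purple). Bars are standard errors and filled points passed at an adjusted p under 0.05. All purple points lie left of 0, and PSAD2 is farthest left at -1.34; under quantile normalization 28 of the 32 lie there.

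Electron carriers and the ATP synthase moved less evenly. Of the 6 carriers, PETC and PETE1 fell outside the warm hours and 4 did not pass. PETE1 and PETE2 encode plastocyanin, the copper protein that feeds photosystem I, and PETE2 is the more abundant. PETE1 (AT1G76100) had a lowest, median and highest level of 109.5, 180.2 and 241 TPM in the 8 oscillating libraries, against 166, 291 and 344 TPM in the 8 constant ones, and differed by -0.74 (SE 0.08, adjusted p = 3.72e-04). PETE2 differed by -0.39 (SE 0.11, adjusted p = 0.0610), with 7 of 8 pairs lower. PETC (AT4G03280), the Rieske iron-sulfur protein of cytochrome b6f, had a lowest, median and highest level of 1072, 1085 and 1246 TPM in the 8 oscillating libraries, against 1259.8, 1317 and 1487 TPM in the 8 constant ones, which did not overlap in deposited TPM. Its difference was -0.37 (SE 0.09, adjusted p = 0.0289), and the call was lost in 9 of 17 alternatives.

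Ferredoxin and its reductase had negative differences that did not pass outside the warm hours. FD2, the main leaf ferredoxin, differed by -0.33 (SE 0.10, adjusted p = 0.0644), FNR1 by -0.32 (SE 0.11, adjusted p = 0.111) and FNR2 by -0.36 (SE 0.14, adjusted p = 0.137). In the ATP synthase ATPD, the delta subunit, fell by 0.42 (SE 0.08, adjusted p = 0.0101). The gamma subunit ATPC1, on which the thiol switch of the enzyme sits, differed by -0.14 (SE 0.08, adjusted p = 0.298) and ATPG, a subunit of the membrane stalk, by -0.23 (SE 0.08, adjusted p = 0.111). These were the smallest differences of the list next to PSBS.

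Upstream sequences are shown for the 4 genes whose regimes did not overlap in deposited TPM outside the warm hours. Of these, PSBQ1 and PETC overlapped on the scaled values. All 4 hold a G-box, CACGTG, within 300 bases upstream of the gene start in the deposited tables. All 4 windows also hold GATAAG, so the G-box is not the only motif they share. In PSBQ1 and PSBTN the GATAAG match lies 53 and 15 bases from the start, in the part cut from the sequence printed. The G-box is the core bound by PIF and other basic helix-loop-helix and bZIP factors. It was found in 14 of the 32 windows (43.75%), against 8.46% of the windows of 26699 genes. Among the 19991 of those genes that were also tested for expression, the share was 9.93%. The other letters searched, on both strands, were GATAAG (the core of the I-box of light-regulated promoters; 20 of 32, 62.5%, against 4012 of the 26699), CCAATC (associated with the chloroplast regulators GLK1 and GLK2; 13 of 32, 40.6%, against 12.9%) and CACATG (another E-box bound by PIF factors; 5 of 32, 15.6%, against 12.3%). The clock motifs AAAATATCT and AAAAATCT were in 1 and 4 windows, 3.13% and 12.5%, against 2.84% and 7.96% of the 26699. Sequences are from the RefSeq genome TAIR10.1, whose chromosomes carry the TAIR10 coordinates, read 5′ to 3′ on the strand of the gene, and they are cut where an annotated transcript or a neighbouring gene begins. Capitals mark matches to any of these 6 motifs on either strand, and 0 of the matches printed overlap.
PSBQ1: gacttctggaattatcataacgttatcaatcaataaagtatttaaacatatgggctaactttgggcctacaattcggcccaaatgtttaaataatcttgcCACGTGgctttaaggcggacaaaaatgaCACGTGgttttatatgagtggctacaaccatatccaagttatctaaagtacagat
PSBQ2: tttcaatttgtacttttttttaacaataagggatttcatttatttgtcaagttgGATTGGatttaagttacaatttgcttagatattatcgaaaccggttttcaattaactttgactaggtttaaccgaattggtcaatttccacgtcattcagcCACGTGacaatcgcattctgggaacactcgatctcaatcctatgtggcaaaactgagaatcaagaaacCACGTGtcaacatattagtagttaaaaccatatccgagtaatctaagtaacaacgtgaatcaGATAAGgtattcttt
PSBTN: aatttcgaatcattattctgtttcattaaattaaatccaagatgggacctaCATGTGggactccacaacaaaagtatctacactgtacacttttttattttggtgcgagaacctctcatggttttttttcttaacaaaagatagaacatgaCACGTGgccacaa
PETC: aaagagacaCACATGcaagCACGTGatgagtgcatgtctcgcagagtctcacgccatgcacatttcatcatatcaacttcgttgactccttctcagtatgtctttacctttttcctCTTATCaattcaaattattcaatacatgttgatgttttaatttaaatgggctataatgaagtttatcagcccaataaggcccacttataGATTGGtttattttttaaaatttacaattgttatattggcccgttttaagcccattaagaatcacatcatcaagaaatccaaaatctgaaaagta

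These are chr4:11334169-11334351 on the plus strand for PSBQ1, chr4:2673244-2673543 on the minus strand for PSBQ2, chr3:7377227-7377390 on the minus strand for PSBTN and chr4:1439846-1440145 on the plus strand for PETC. Both PSBQ windows hold 2 copies of CACGTG, which lie 133 and 105 bases from the start of PSBQ1 and 145 and 77 bases from that of PSBQ2. In PSBTN the copy lies 53 bases from the start and in PETC 281 bases. Outside the warm hours 13 of the 14 members with a G-box fell, with a median of -0.54, and 11 of the 18 without one, with a median of -0.46; the difference between them was not tested. PSAD2, whose difference was the largest, has no CACGTG in its window. A match of letters is a description of the window and says nothing on whether a factor binds there.

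In the warm hours few members passed the test. Over ZT5, ZT8 and ZT12, 1 gene rose and 2 fell in limma's test, where 10.4% of all genes rose and 8.97% fell, and the median difference was -0.09. The 3 genes that changed are all electron carriers. PETE1 had a lowest, median and highest level of 223, 327 and 386 TPM in the 6 oscillating libraries, against 168, 288 and 333 TPM in the 6 constant ones, with 6 of 6 pairs higher and a difference of 0.33 (SE 0.09, adjusted p = 0.0262). FD2 had a lowest, median and highest level of 1189.8, 1286 and 1854 TPM in the 6 oscillating libraries, against 1803, 1884 and 2074 TPM in the 6 constant ones, with 6 of 6 pairs lower and a difference of -0.43 (SE 0.11, adjusted p = 0.0173). FNR2 had a lowest, median and highest level of 405, 873 and 1269 TPM in the 6 oscillating libraries, against 753, 1248 and 1539.6 TPM in the 6 constant ones, with 5 of 6 pairs lower and a difference of -0.55 (SE 0.16, adjusted p = 0.0266). The ranges overlapped in all 3.

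Each of those calls rested on particular times. Without ZT8 none of the 3 passed and without ZT12 only FNR2 did, while FNR2 was lost without ZT5. FD2 was also lost under quantile normalization. FNR2 at ZT5 had 405 and 406 TPM in the oscillating pif7 and Col-0 libraries, against 756 and 753 TPM in the constant ones, and at ZT8 it had 804 and 941 TPM in the oscillating pif7 and Col-0 libraries, against 1325 and 1539.6 TPM in the constant ones. FNR2 peaked at ZT12 in the oscillating regime in both genotypes and at ZT8 in the constant regime. FD2 at ZT8 had 1237 and 1334 TPM in the oscillating pif7 and Col-0 libraries, against 1858 and 1803 TPM in the constant ones, and at ZT12 1189.8 and 1206 TPM in the oscillating pif7 and Col-0 libraries, against 1826 and 1909 TPM in the constant ones. On the scaled values FD2 was lowest at ZT12 in both genotypes and both regimes. In deposited TPM its lowest constant Col-0 library was that of ZT16, at 1797 TPM. The scaled fold between highest and lowest time was 1.28 in pif7 and 1.24 in Col-0 in the constant regime, against 1.63 and 1.74 in the oscillating regime.

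In deposited TPM the regimes did not overlap in PETC and ATPG, which were picked out for that after their values were seen and did not pass the test; PETC passed only when the deposited values were not scaled (adjusted p = 0.0479). In the 6 oscillating libraries of the warm hours PETC lay between 1070.0 and 1201 TPM, against 1283 to 1374 TPM in the constant ones, a difference of -0.23 (SE 0.10, adjusted p = 0.124). ATPG lay between 736 and 797 TPM in the oscillating libraries, against 832 to 976 TPM in the constant ones, a difference of -0.19 (SE 0.09, adjusted p = 0.156). Of all genes tested 3.1% showed such a gap with the oscillating regime lower. PSAD2 had the highest value of the list, 0.47 (SE 0.21, adjusted p = 0.127), but only 4 of 6 pairs were higher.

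At ZT12, the last warm hour, 2 members rose and 1 fell, where 9.13% of all genes rose and 7.05% fell. PSAD2 had 862 and 743 TPM in the oscillating pif7 and Col-0 libraries, against 371 and 331 TPM in the constant ones, a difference of 1.26 (SE 0.12, adjusted p = 1.37e-04). PETE1 had 283 and 223 TPM in the oscillating pif7 and Col-0 libraries, against 168 and 171 TPM in the constant ones, a difference of 0.63 (SE 0.14, adjusted p = 0.0123). FD2, given above, differed by -0.57 (SE 0.15, adjusted p = 0.0270). Both rises had the same direction in both genotypes, and PSAD2 passed under all 10 alternatives run, while PETE1 and FD2 were lost when the 4 libraries of ZT12 were fitted alone, and FD2 also with no filter on low values. The median of all 32 at ZT12 was 0.10 over both genotypes, with -5.95e-05 in pif7 and 0.20 in Col-0. The Col-0 pair at ZT12 also had the most negative length trend of the 14 pairs, a Spearman correlation of -0.36. Its part in that median was not tested.

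The single times outside the warm hours were also tested. In limma's test 22, 19, 22 and 27 members were lower at an unadjusted p under 0.05 at ZT0, ZT4, ZT16 and ZT20. Over all genes 9.6%, 18.1%, 28.1% and 10.9% had such a p in either direction. The members' median differences at these times were -0.75, -0.46, -0.27 and -0.59 in pif7, and -0.41, -0.40, -0.67 and -0.65 in Col-0. The adjusted counts therefore do not say at which time the decrease was largest. At ZT0 9 members fell, where 0.48% of all genes did, at ZT4 6 fell (2.23%), at ZT16 3 fell (1.64%) and at ZT20 10 fell (0.661%). No member rose in limma's test at any of these 4 times, and none was above 0 with an unadjusted p under 0.05. PSAD2 and PETE1 were among the genes that fell at each of the 4 times. At ZT20 PSAD2 had 133 and 96.0 TPM in the oscillating pif7 and Col-0 libraries, against 368 and 363 TPM in the constant ones, a difference of -1.85 (SE 0.12, adjusted p = 2.04e-05). At ZT0 it had 217 and 162 TPM in the oscillating pif7 and Col-0 libraries, against 564 and 537 TPM in the constant ones, a difference of -1.61 (SE 0.12, adjusted p = 7.69e-05). PSAH2 at ZT20 had 455 and 389 TPM in the oscillating pif7 and Col-0 libraries, against 860.5 and 889 TPM in the constant ones, a difference of -1.22 (SE 0.15, adjusted p = 0.00263). At ZT4 PSAE2 led with 495 and 401 TPM in the oscillating pif7 and Col-0 libraries, against 787 and 752 TPM in the constant ones, a difference of -0.82 (SE 0.14, adjusted p = 0.00879). At ZT16 PSAD2, PSBO2 and PETE1 fell, by 1.08, 0.61 and 0.66, and none of the 3 passed when the Col-0 pair at ZT16 was left out. At ZT0 none passed when its 4 libraries were fitted alone, and at ZT20 3 did. At ZT5 1 member fell (FNR2, by 0.85), where 3.56% of all genes did, and at ZT8 FNR2 and FD2 fell (by 0.80 and 0.59), where 5.33% did; 0 members rose at ZT5 or ZT8, adjusted or at an unadjusted p under 0.05.

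**Figure D4:**
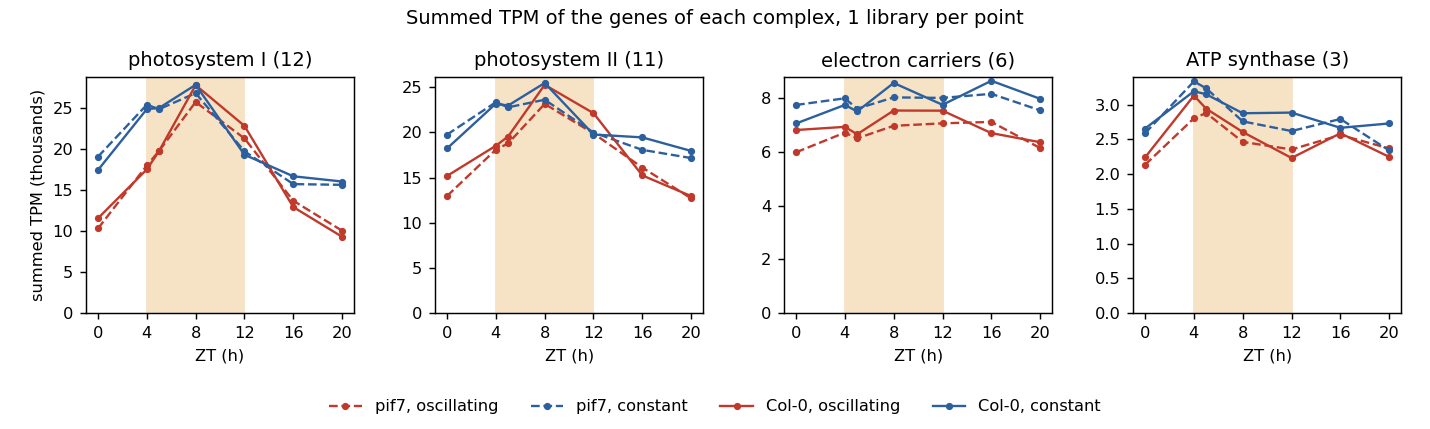
Summed TPM, divided by 1000 (vertical axis, from 0), of the genes of each complex against time of day (ZT, hours), 1 library per point, red for the oscillating and blue for the constant regime, dashed for pif7 and solid for Col-0, with the hours at 27 °C shaded. In these deposited TPM, without scaling, the regimes of both photosystems lie close together at ZT8 and apart at ZT0 and ZT20. The sums of carriers and ATP synthase vary less over the day.

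Added up in deposited TPM without scaling, the transcripts of the list followed a similar course. The sum over all 32 genes in oscillating pif7 seedlings was 0.639 of that in constant pif7 seedlings at ZT0, 0.759 at ZT4, 0.820 at ZT5, 0.953 at ZT8, 1.01 at ZT12, 0.882 at ZT16 and 0.733 at ZT20. In Col-0 the same ratio was 0.789, 0.782, 0.834, 0.976, 1.1, 0.790 and 0.691 at those times. In both genotypes this unscaled sum was within 5% of the constant regime or above it at ZT8 and ZT12 and below it at every other time. No sum was formed from the scaled values. On those, the members' median ratio at ZT8 was 0.916 in pif7 and 0.909 in Col-0. At ZT12 that median ratio was 1.00 and 1.15, and at ZT16 it was 0.828 and 0.630.

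Whether the regime difference itself changed between the warm hours and the rest of the day was tested as a contrast added after the data were seen. In 8 genes, PSAD1, PSAD2, PSAE1, PSAH1, PSAH2, PSBQ1, PSBQ2 and PETE1, the difference was higher in the warm hours, where 5.29% of all genes passed in that direction, and 0 members passed in the other. The step was 1.81 (SE 0.28, adjusted p = 0.00213) for PSAD2 and 1.07 (SE 0.12, adjusted p = 7.16e-04) for PETE1, and these were the 2 that passed under all 16 alternatives. Photosystem I held 5 of the 8 genes. The count fell to 2 without ZT8, without ZT12 or without ZT20, to 4 without ZT4, and to 5 without ZT0 or without the Col-0 pair at ZT16.

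For 7 proteins the list holds both genes of a pair, and the balance within a pair could be followed in each library. Their sequences are similar and how the authors' counting split shared reads is not given in the sources used here, so these ratios are uncertain to that extent. The ratio of PSAD2 to PSAD1 at ZT12 was 0.494 and 0.432 in oscillating pif7 and Col-0 seedlings, against 0.223 and 0.197 in constant ones. At ZT20 it was 0.163 and 0.128 in the oscillating regime, against 0.288 and 0.277 in the constant one. The share of PSAD2 was thus higher in 6 of 6 pairs in the warm hours (mean log2 difference 0.57 ± 0.45 (SD over 6 pairs); exact p = 0.0312, adjusted p = 0.0625) and lower in 8 of 8 pairs outside them (mean log2 difference -0.64 ± 0.28 (SD over 8 pairs); exact p = 0.00781, adjusted p = 0.0547).

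The plastocyanin pair had the same signs with smaller values. PETE1 relative to PETE2 was higher in 6 of 6 pairs in the warm hours (mean log2 difference 0.27 ± 0.25 (SD over 6 pairs)) and lower in 8 of 8 pairs outside them (mean log2 difference -0.35 ± 0.26 (SD over 8 pairs)). At ZT12 the ratio was 0.113 and 0.0788 in oscillating pif7 and Col-0 seedlings, against 0.0677 and 0.0764 in constant ones. FNR2 relative to FNR1 was lower in 6 of 6 pairs in the warm hours (mean log2 difference -0.56 ± 0.34 (SD over 6 pairs)), while outside them 5 of 8 pairs were higher and 3 lower. PSAH2 relative to PSAH1 and PSBQ2 relative to PSBQ1 were lower in 7 of 8 pairs outside the warm hours, by 0.32 ± 0.24 and 0.29 ± 0.24 (SD, both negative differences). PSBO and PSAE kept mixed signs. Among the 14 two-sided exact sign-flip permutation tests, added after the data were seen, the smallest p possible is 0.0312 with 6 pairs and 0.00781 with 8, and after adjustment none was under 0.05, with the lowest at 0.0547.

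**Figure D5:**
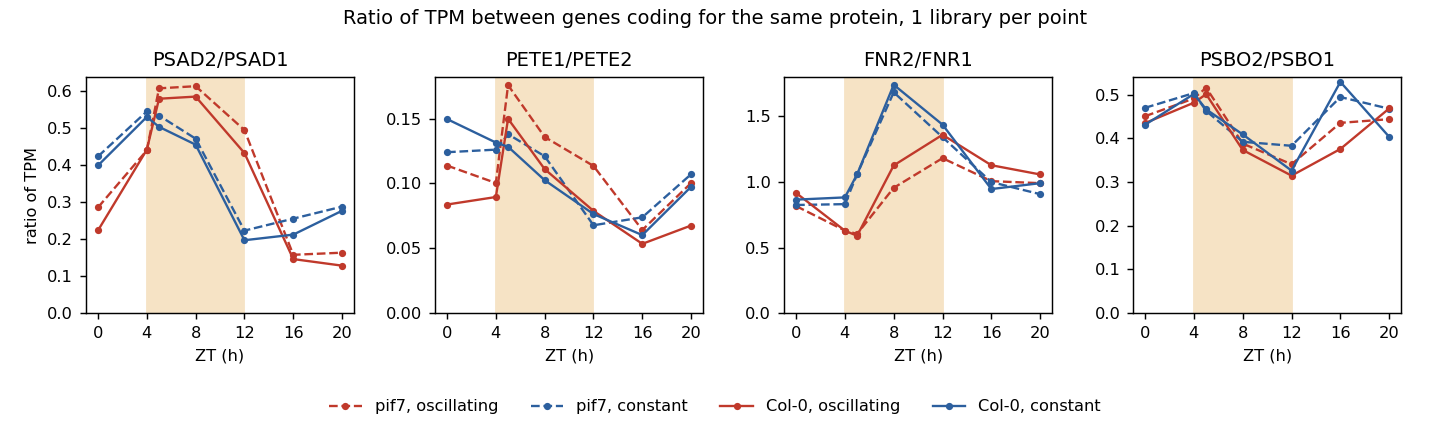
Ratio of TPM between genes that code for the same protein (vertical axis, from 0) against time of day (ZT, hours) for 4 pairs, 1 library per point, red for the oscillating and blue for the constant regime, dashed for pif7 and solid for Col-0, with the hours at 27 °C shaded. The ratio of PSAD2 to PSAD1 in the oscillating regime lies above the constant regime at ZT12 and below it at ZT20, and PSBO2 to PSBO1 shows no such turn.

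No member was shown to differ between pif7 and Col-0. Over the 14 pairs of a pif7 and a Col-0 library, 0 of 32 genes passed limma's test, where 0.361% of all genes did, and 3 members had an unadjusted p under 0.05, against 9.98% of all genes. The median difference, pif7 minus Col-0, was -0.02, a ratio of 0.987. The highest value was that of PETE1, at 0.18 (SE 0.04, adjusted p = 0.0972) with 13 of 14 pairs higher in pif7, followed by PSAD2 at 0.15 (SE 0.04, adjusted p = 0.136) with 12 of 14 higher. PSBP1 had the lowest, at -0.11 (SE 0.04, adjusted p = 0.365) with 12 of 14 pairs lower. No bound on smaller effects follows from these tests.

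The regime difference was likewise not shown to depend on the genotype. For the warm hours the difference in pif7 minus that in Col-0 passed limma's test in 0 of 32 members and in 0 of 21031 genes, with 0 members and 1.33% of all genes at an unadjusted p under 0.05. Its median over the members was -0.09, and 0.01 under quantile normalization. Outside the warm hours again 0 members and 0 genes passed, with 0 members and 0.842% of genes unadjusted. The median outside difference of the members was -0.53 in pif7 and -0.52 in Col-0. The same fit over all 28 libraries also gave the outside effect of each genotype by itself. In limma's test 2 members fell in pif7 (PSBO2 and PETE1), where 0.119% of genes did. In Col-0 6 fell (PSAD1, PSAD2, PSAH2, PSBO2, PSBQ2 and PETE1), where 0.309% did. At an unadjusted p under 0.05, 26 members were lower in pif7 and 26 in Col-0. Over all genes 10.6% and 12.6% had such a p in either direction.

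Other genes of the photosynthetic apparatus were read in the same fits, as lists chosen with earlier results of these data known. Of 20 antenna genes, 13 fell outside the warm hours, with a median of -0.73, and at ZT12 9 rose and 2 fell. Of the 5 Rubisco small subunit and activase genes 0 passed outside the warm hours, with 1 lower at an unadjusted p under 0.05, and the median was -0.09. Of 17 nuclear genes of the NDH complex, which returns electrons to plastoquinone, 1 fell (NDHS, -0.37 (SE 0.08, adjusted p = 0.0160)), and the median was -0.10. Of 18 other electron transport genes 4 fell and 0 rose, with PSB27, a photosystem II repair factor, at -0.55 (SE 0.08, adjusted p = 0.00199) and PSAP, a thylakoid curvature protein, at -0.48 (SE 0.08, adjusted p = 0.00495). Of 7 assembly factors 4 fell, HCF107 by 0.63 and PYG7 by 0.47 among them. The difference between the lists was not tested.

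In the warm hours 4 of those 18 other electron transport genes rose and 1 fell. PGRL1B, which takes part in cyclic electron flow, rose by 1.09 (SE 0.16, adjusted p = 6.21e-04). RFNR2, the reductase of roots, fell by 1.01 (SE 0.21, adjusted p = 0.00478). FD1, the minor leaf ferredoxin, rose by 0.87 (adjusted p = 0.00257) over the hours in which FD2 fell by 0.43; FD1 was singled out after its value was seen. Of the 8 regulators of plastid protein genes, GLK2 rose in the warm hours, by 0.79 (SE 0.25, adjusted p = 0.0399), and GLK1 differed by 0.06 (SE 0.13, adjusted p = 0.782). GLK1 and GLK2 activate genes of the photosystems and of chlorophyll synthesis. SIG5, a sigma factor of the plastid polymerase known to answer to stress and light, differed by 1.19 (SE 0.16, adjusted p = 0.00111) at ZT8, by -1.04 (adjusted p = 0.010) at ZT0 and by -1.73 (SE 0.16, adjusted p = 2.49e-04) at ZT20.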

How the data were processed

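RNA sequencing libraries of 28 seedling samples were prepared with a strand-specific kit and sequenced in pairs, per the labels' protocols. The submitters' processing notes name HISAT2, StringTie and the TAIR10 build; versions, options and strand setting are not given in the sources used here. The deposited tables give TPM, FPKM and coverage per gene, per the file headers. The deposited TPM are listed for assembled loci and again for reference genes, so the column was treated as normalized values and not as counts. The deposited FPKM and coverage signal served only for depth, 1.32 to 2.82 gigabases per library.

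TPM of the reference genes were scaled by median ratios and fitted as log2(value + 1) by limma (version 3.58.1, R 4.3.3), its variance allowed to follow the mean. Genes needed at least 1 TPM in at least 2 libraries, which kept 21031 of 33602 genes and all 32 members. Fold changes on this scale understate those of low genes. One fit had a term for each genotype and time and 4 regime effects; others had 1 regime effect per time, 1 genotype effect, or terms for time within a regime. P-values were adjusted by Benjamini-Hochberg over all genes tested, at a threshold of 0.05. TPM printed per library are as deposited, while differences and signs of pairs use the scaled values. The scripts were tested on simulated data.

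The members and lists were chosen with earlier results of these data known. All 32 members could be named; values of differences were to be given for members past a test, for the 3 highest and 3 lowest of a comparison and for pairs of genes coding for the same subunit. PETC and ATPG in the warm hours were named for not overlapping, after their values were seen. The contrast of warm hours against the rest, the pair ratios, the removal of the length trend and the omission of the Col-0 pair at ZT16 were added after seeing the data. Alternatives were other pseudocounts (0.1 and 5), filters and scalings, a variance without trend, the omission of single times, and fits of the compared pairs alone.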

Additional observations from a re-analysis of the deposited data

Results flagged for a closer look

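In 8 genes the difference between the oscillating and the constant regime itself differed between the warm hours and the other times, by limma's test of that contrast, which was added after the data were seen. The step, warm hours minus other times on the log2 scale, was 1.81 for PSAD2 (adjusted p = 0.00213), 1.07 for PETE1 (adjusted p = 7.16e-04), 0.88 for PSAH2 (adjusted p = 0.0143) and 0.75 for PSBQ2 (adjusted p = 0.0252). It was 0.60 for PSAD1 (adjusted p = 0.0228), 0.59 for PSAE1 (adjusted p = 0.0416), 0.53 for PSBQ1 (adjusted p = 0.0441) and 0.44 for PSAH1 (adjusted p = 0.0485). Both D subunit genes, both H subunit genes and both PSBQ genes are among the 8. PSAD2 and PETE1 passed under all 16 alternatives, while the call was lost under 3 for PSAH2, 5 for PSBQ2, 6 for PSAD1, 9 for PSBQ1, 10 for PSAE1 and 12 for PSAH1.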

How the results depend on the processing

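No paired analysis was possible with a replicate number as a block, because each condition has 1 library and the labels give none; the fits and the exact tests match libraries by genotype and time. Counts of members past the test moved by over 1.5 times as follows, and the cause was not tested. In the warm hours 3 became 0 without ZT8, 0 in a fit of the compared pairs alone, and 1 without ZT12. Outside them 24 became 9 under quantile normalization and 10 without ZT20. For the warm hours minus the other times 8 became 4 with no filter, under quantile normalization or without ZT4, 5 without ZT0, with the length trend removed or without the Col-0 ZT16 pair, and 2 without ZT8, ZT12 or ZT20. Fitting only the pairs compared gave 0 at ZT0, 3 at ZT5, 1 at ZT12, 1 at ZT16 and 3 at ZT20. Removing the length trend gave 14 at ZT0, 2 at ZT5 and 1 at ZT16. With no filter the count was 3 at ZT4, 1 at ZT8 and 4 at ZT20, and with a mean of at least 5 TPM it was 7 at ZT16. Quantile normalization gave 2 at ZT5, 1 at ZT8 and 6 at ZT20, no scaling gave 2 at ZT5, and leaving out the Col-0 ZT16 pair gave 0 at ZT16. Under quantile normalization PSBX turned to 0.0289 outside the warm hours, and the members' median of the difference between genotypes in the warm hours to 0.00702. With 1 library per condition, differences smaller than the spread over times and genotypes were not detectable.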
